A study of Rattus norvegicus with 120 samples.

Results

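Bdh1, Oxct1 and Acat1 encode 3 mitochondrial enzymes that handle ketone bodies, and their transcripts are described here in kidney and heart of ZSF1 rats. They were chosen by gene symbol, as 3 of the 30560 genes in the deposited tables (ENSRNOG00000001736, ENSRNOG00000043094 and ENSRNOG00000007862, in that order), and each was tested in every comparison. Poly-A RNA of 30-week-old rats was sequenced in 120 libraries, 60 per organ, in 12 groups of 10 libraries each. ZSF1 obese rats received BT2, empagliflozin, both (the combination) or vehicle, and ZSF1 lean rats given vehicle were the controls of the obese ones. Study A held the obese BT2, obese vehicle and lean vehicle groups, and study B held the obese combination, obese empagliflozin and its own obese vehicle group. Every drug group was obese, so no drug was measured in lean rats, and all compounds were given in chow. ZSF1 obese rats lack a working leptin receptor and become obese and diabetic with kidney disease and a stiff heart, while their lean relatives do not. BT2 inhibits BDK, the kinase that restrains branched-chain ketoacid breakdown, and empagliflozin inhibits SGLT2, the glucose carrier of the proximal tubule.

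Ketone bodies are made in mitochondria, mostly in liver, from acetyl-CoA, and are burned in heart, kidney and other organs when fat supply is high or glucose is scarce. The enzyme of Bdh1 interconverts β-hydroxybutyrate and acetoacetate, the enzyme of Oxct1 (also called SCOT) activates acetoacetate with the CoA of succinyl-CoA and commits it to oxidation, and the thiolase of Acat1 splits acetoacetyl-CoA into acetyl-CoA for the citric acid cycle. Bdh1 and Acat1 can also run towards synthesis, and the Acat1 thiolase is in addition the last step of isoleucine breakdown.

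Kidney libraries had a median of 10.05 M counts (0.0228 to 54.9 M; M stands for 1000000) and heart libraries 12.15 M (6.74 to 23.6 M). BT2 replicate 2 and study B vehicle replicate 8 of kidney had under 1000000 counts and were left out of the levels but not of the tests. Each member rested on at least 102 counts in every other library (Bdh1 in heart) and on up to 44721 counts (Oxct1 in kidney). A library was counted as holding transcripts of another tissue where the muscle gene Actc1 or the liver gene Alb in kidney, or the skeletal muscle gene Myh4 in heart, exceeded 100 times the organ median, or the atrial gene Myl7 in heart exceeded 5 times. By these limits there were 5 of the deeper kidney libraries (muscle in lean replicate 8 and combination replicate 7, liver in combination replicates 1, 4 and 5) and 11 heart libraries (atrium, or skeletal muscle). Smaller amounts occurred in others, with summed cardiomyocyte markers up to 426 CPM in obese vehicle kidneys of study A (median 15.4) and thick ascending limb markers up to 93.2 CPM in lean hearts (median 0.405). The proximal tubule marker Lrp2 was abundant in kidney (median 1462 CPM) and near 0 in heart (median 0.403 CPM). The reverse held for the cardiac troponin Tnnt2 (median 7258 CPM in heart and 2.87 CPM in kidney). Aqp1, also listed as a proximal tubule marker, was present in both organs (median 1798 CPM in kidney and 416 CPM in heart). CPM is counts per 1000000 counts of a library, scaled by TMM factors over the libraries of an organ.

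The promoters of the members are shown because all 3 transcripts fell together in the obese kidney. They span 250 bases before to 50 after the annotated start in the RefSeq tables for build GRCr8, where all 3 members matched by symbol; the counts themselves refer to build mRatBN7.2. Capitals mark matches, on either strand, to any of 7 motifs: the GC box GGGCGG, the CCAAT box, the TATA box TATAAA, the nuclear receptor half-site AGGTCA, the ERR element TCAAGGTCA that contains it, the cAMP response element TGACGTCA and its half-site TGACG. Bdh1 lies on chr11:82842587-82842886, minus strand. Oxct1 lies on chr2:54963714-54964013, plus strand. Acat1 lies on chr8:62904993-62905292, minus strand.
Bdh1: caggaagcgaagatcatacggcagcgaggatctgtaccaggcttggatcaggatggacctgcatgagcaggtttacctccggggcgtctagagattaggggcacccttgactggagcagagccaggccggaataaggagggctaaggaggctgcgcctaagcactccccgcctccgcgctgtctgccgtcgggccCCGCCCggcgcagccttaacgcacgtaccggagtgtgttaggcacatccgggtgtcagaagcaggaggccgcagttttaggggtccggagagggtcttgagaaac
Oxct1: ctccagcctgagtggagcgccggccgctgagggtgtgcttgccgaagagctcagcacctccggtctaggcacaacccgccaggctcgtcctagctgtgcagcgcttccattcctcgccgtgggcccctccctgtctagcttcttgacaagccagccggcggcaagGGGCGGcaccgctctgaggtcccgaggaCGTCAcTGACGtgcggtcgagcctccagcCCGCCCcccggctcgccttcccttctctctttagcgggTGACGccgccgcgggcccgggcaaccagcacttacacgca
Acat1: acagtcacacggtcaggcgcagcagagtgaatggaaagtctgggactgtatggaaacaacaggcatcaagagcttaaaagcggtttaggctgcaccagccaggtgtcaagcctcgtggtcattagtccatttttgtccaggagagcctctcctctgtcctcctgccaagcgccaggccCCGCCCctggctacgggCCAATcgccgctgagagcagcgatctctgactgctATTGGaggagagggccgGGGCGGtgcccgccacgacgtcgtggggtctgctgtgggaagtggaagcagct
All 3 windows held a GC box, which 33.1% of 33469 promoters of this length hold. Bdh1 had 1 GC box, starting at -55 from the annotated start. Oxct1 had 2, at -85 and -28, and 3 half-sites TGACG, at -57, -51 and 11, which 21.2% of promoters hold at least once. Acat1 had 2 GC boxes, at -72 and -3, and 2 CCAAT boxes, at -55 and -20, a motif that 37.5% of promoters hold. None of the windows held the TATA box (in 14.2% of promoters), the nuclear receptor half-site (16.2%), the ERR element (0.433%) or the full cAMP response element (1.83%). G and C made up 62% of the Bdh1 window, 69% of the Oxct1 window and 60% of the Acat1 window, against a median of 51.7% over all promoters.

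In lean vehicle rats all 3 transcripts were well represented in both organs. In plain CPM without TMM factors, Oxct1 averaged 1473 ± 525 in heart and 981 ± 92.9 in kidney (SD, n = 10 each), a ratio of 1.5. Acat1 averaged 601 ± 104 CPM in heart and 489 ± 11.7 CPM in kidney, and Bdh1 52.5 ± 19.1 CPM in heart and 44.3 ± 6.91 CPM in kidney. Heart libraries spent 38.7% to 46.65% of their counts (group medians) on mitochondrially encoded transcripts and kidney libraries 13.6% to 17.05%. Over counts outside those genes the heart to kidney ratios were 2.05 for Oxct1, 1.67 for Acat1 and 1.60 for Bdh1. These organ levels are a description and were not tested.

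**Figure D1:**
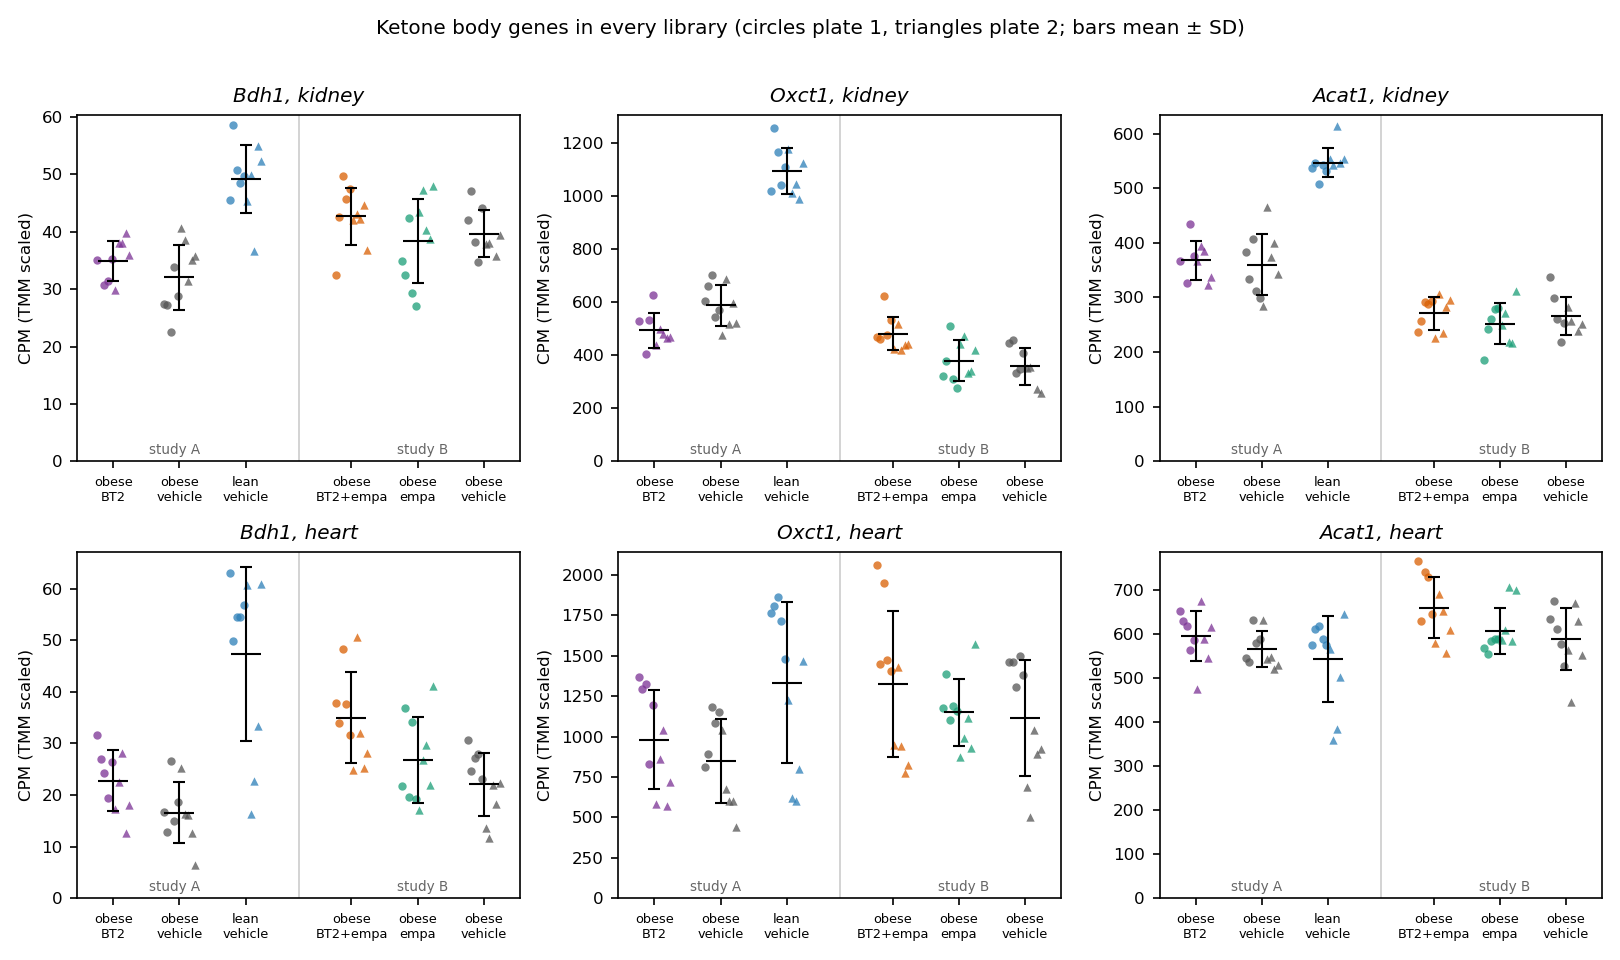
Levels of Bdh1, Oxct1 and Acat1 in CPM (TMM scaled, y axis) in each kidney (top) and heart (bottom) library of at least 1000000 counts, by group (x axis; empa is empagliflozin), with circles for plate 1, triangles for plate 2 and bars for mean ± SD. In kidney, the obese vehicle libraries of study A lie apart from the lean ones for Oxct1 (475 to 702 against 990.3 to 1258 CPM) and Acat1 (284 to 465 against 508 to 613 CPM), and in heart the plate 2 libraries of several groups are the low ones for Oxct1.

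In the kidney of obese rats the transcripts of the 3 enzymes of ketone use fell together. The comparison of obese with lean vehicle rats asks what the metabolic disease of this strain does in each organ. Oxct1, which commits ketone bodies to oxidation, fell most. Its levels ran from 475 to 702 CPM in obese kidneys (median 584) and from 990.3 to 1258 CPM in lean kidneys (median 1078). The groups did not overlap, and the mean was 46.3% lower in obese rats. The share of all genes without overlap was not computed, here or in any later comparison. The log2 fold change was -0.87 ± 0.07 (SE), with an adjusted p of 4.77e-08 by edgeR's quasi-likelihood test with Benjamini-Hochberg adjustment over all genes, the test behind every adjusted p here unless another is named.

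Acat1, the thiolase, also showed no overlap of the groups in kidney. Its levels ran from 284 to 465 CPM in obese kidneys (median 358) and from 508 to 613 CPM in lean kidneys (median 544). The log2 fold change was -0.58 ± 0.07 (adjusted p = 7.58e-06). Bdh1 ran from 22.5 to 40.7 CPM in obese kidneys (median 32.6) and from 36.7 to 58.6 CPM in lean kidneys (median 49.8). All 10 obese libraries lay under the lean median, and the groups met only through lean replicate 8, the library with muscle transcripts, which was the lowest lean library for Bdh1. The log2 fold change of Bdh1 was -0.60 ± 0.09 (adjusted p = 4.93e-05), and without lean replicate 8 it was -0.651 (adjusted p = 2.4e-06). On plate 1 alone Bdh1 fell by 0.816 and on plate 2 alone by 0.377 on the log2 scale, and the second did not pass (adjusted p = 0.0717). So 3 of 3 members were called lower, in a comparison where 32% of 14230 genes were called and 15.2% were called lower.

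Around the members, transcripts of many mitochondrial enzymes were lower in the obese kidney. Of the other ketone-using enzymes, the cytosolic acetoacetyl-CoA synthetase Aacs rose (log2 0.61 ± 0.18, adjusted p = 0.0138) and Bdh2 fell (log2 -0.30 ± 0.11, adjusted p = 0.044), out of 3 tested. Of 5 monocarboxylate transport genes 2 fell, namely Slc16a7 (log2 -0.39 ± 0.09, adjusted p = 0.00184) and Slc16a6 (log2 -0.54 ± 0.20, adjusted p = 0.0415). Slc16a1, which encodes the ketone and lactate carrier MCT1, was at -0.34 ± 0.28 (adjusted p = 0.39). Ppara, the fatty acid sensor of the fasting response, fell by 0.70 ± 0.20 on the log2 scale (adjusted p = 0.0102), but on plate 2 alone it did not pass (log2 -0.853, adjusted p = 0.166). Of 5 regulators tested, Esrra, the estrogen-related receptor of mitochondrial genes, also fell (log2 -0.31 ± 0.11, adjusted p = 0.0382), and Creb3l3, a liver-type transcription factor of fasting, rose (log2 0.88 ± 0.34, adjusted p = 0.0498).

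The branched-chain routes that end in the same products moved with the members. All 5 leucine breakdown genes fell in obese kidney, with a median log2 fold change of -0.47. So did all 3 genes from isoleucine to acetyl-CoA, with a median of -0.53. The median over all genes tested was -0.02, and 15.2% of them were called lower. The smallest adjusted p among the leucine genes belonged to Ivd, which oxidises isovaleryl-CoA (log2 -0.58 ± 0.06, adjusted p = 8.45e-07), then to Mccc2, a subunit of methylcrotonyl-CoA carboxylase (log2 -0.43 ± 0.06), and to Bcat2, the mitochondrial transaminase (log2 -0.70 ± 0.10). The isoleucine genes were Echs1, the short-chain enoyl-CoA hydratase (log2 -0.59 ± 0.06, adjusted p = 8.42e-07), Acadsb, the short/branched-chain dehydrogenase (log2 -0.53 ± 0.06), and Hsd17b10, the next dehydrogenase of the route (log2 -0.39 ± 0.08). In the citric acid cycle, 12 of 14 genes fell, with a median of -0.32, and 6 of 7 genes that mark mitochondrial content fell, with a median of -0.33. Sdha of succinate dehydrogenase (log2 -0.35 ± 0.06) and Vdac1 of the outer membrane (log2 -0.40 ± 0.06) had the smallest adjusted p in those lists. Proximal tubule markers moved the same way. Their summed level ran from 6873 to 11613 CPM in obese kidneys (median 9881) and from 7975 to 16706 CPM in lean kidneys (median 15081), and 7 of 10 fell. Of 4 fibroblast markers 2 rose, and their sum ran from 342 to 819.6 CPM in obese kidneys (median 654) and from 329 to 727 CPM in lean kidneys (median 373). Of 4 macrophage markers 2 rose, with sums of 76.5 to 151 CPM in obese kidneys (median 120.2) and 56.7 to 83.7 CPM in lean kidneys (median 65.0). Of 4 collecting duct markers 2 fell, and of 4 thick ascending limb markers 2 fell and 1 rose. The part of these markers in the fall of the members was not tested, and in whole-tissue RNA fewer cells of a type and less RNA per cell cannot be told apart.

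In the obese heart the pattern was different: Bdh1 fell most, Oxct1 less, and Acat1 showed no called change. Bdh1 ran from 6.38 to 26.5 CPM in obese hearts (median 16.2) and from 16.4 to 63.1 CPM in lean hearts (median 54.5). Its mean was 64.8% lower in obese rats, and all 10 obese libraries lay under the lean median. The groups overlapped through the low plate 2 libraries of the lean group, where replicates 7 and 8 had 16.4 and 22.7 CPM. The log2 fold change was -1.47 ± 0.23 (adjusted p = 0.000217). On plate 1 alone it was -1.61 and on plate 2 alone -1.33, where it did not pass (adjusted p = 0.291).

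Oxct1 ran from 442 to 1186 CPM in obese hearts (median 852) and from 599 to 1862 CPM in lean hearts (median 1474). On plate 1 the obese hearts had 809.6 to 1186 CPM and the lean hearts 1479 to 1862 CPM, with no overlap. On plate 2 they overlapped, at 442 to 1038 CPM in obese hearts and 599 to 1468 CPM in lean hearts. The log2 fold change was -0.60 ± 0.16 (adjusted p = 0.0271), with -0.735 on plate 1 alone (adjusted p = 0.000555) and -0.479 on plate 2 alone (adjusted p = 0.78). Without the plate term the call was lost (log2 -0.637, adjusted p = 0.167). Acat1 ran from 519 to 632 CPM in obese hearts (median 546) and from 358 to 644 CPM in lean hearts (median 575), with a log2 fold change of 0.08 ± 0.09 and a 95% interval of -0.11 to 0.28 (adjusted p = 0.684). So 2 of 3 members were called lower, in a comparison where 5.36% of genes were called and 2.03% were called lower.

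Slc16a1 in heart had a log2 fold change of 0.35 ± 0.15 (adjusted p = 0.209) and Ppara at -0.47 ± 0.20 (adjusted p = 0.214). Of all genes, 5.36% were called in this comparison. None of 14 citric acid cycle genes and none of 7 mitochondrial content genes was called in either direction. Their median log2 fold changes were -0.01 and 0.07. A difference between the organs was tested for the members only. Among the branched-chain genes, Bcat2 fell (log2 -0.65 ± 0.14, adjusted p = 0.00578), and so did Acadsb (log2 -0.54 ± 0.12, adjusted p = 0.00628). Of the regulators, Sirt3, the mitochondrial deacetylase, rose (log2 0.25 ± 0.06, adjusted p = 0.022). Summed atrial markers ran from 486 to 3083 CPM in obese hearts (median 1040) and from 359 to 1306 CPM in lean hearts (median 495), and 1 of 4 rose. Over all heart libraries, Nppa had the highest median of these markers (715 CPM), beside 136 CPM for Myl7, 55.7 CPM for Myl4 and 11.8 CPM for Sln. Both adipocyte markers tested rose, and the sum of all 4 listed ran from 370 to 1112 CPM in obese hearts (median 501) and from 291 to 619 CPM in lean hearts (median 326). Fabp4 made up most of that sum. Over all heart libraries its median was 421 CPM, beside 2.67 CPM for Cfd, 0.11 CPM for Adipoq and 0 CPM for Plin1. Of 6 cardiomyocyte markers 1 fell. The part of these markers in the lower levels of Bdh1 and Oxct1 was not tested. Without obese vehicle replicate 10, the one library here with high atrial transcripts, Bdh1 stood at -1.39 and Oxct1 at -0.555 (adjusted p = 0.0453).

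The effect of obesity differed between the organs for 2 of the 3 members. Tested as an interaction, heart minus kidney, the difference of log2 fold changes was -0.86 ± 0.26 for Bdh1 (adjusted p = 0.0239) and 0.68 ± 0.12 for Acat1 (adjusted p = 0.000211). The first means a deeper fall in heart, and the second a fall in kidney beside a value near 0 in heart. For Oxct1 the difference was 0.28 ± 0.19, with a 95% interval of -0.10 to 0.67 (adjusted p = 0.353). Over all genes, 14% were called in this test. The organs are treated as separate samples, since which kidney and heart came from 1 rat was not used here.

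**Figure D2:**
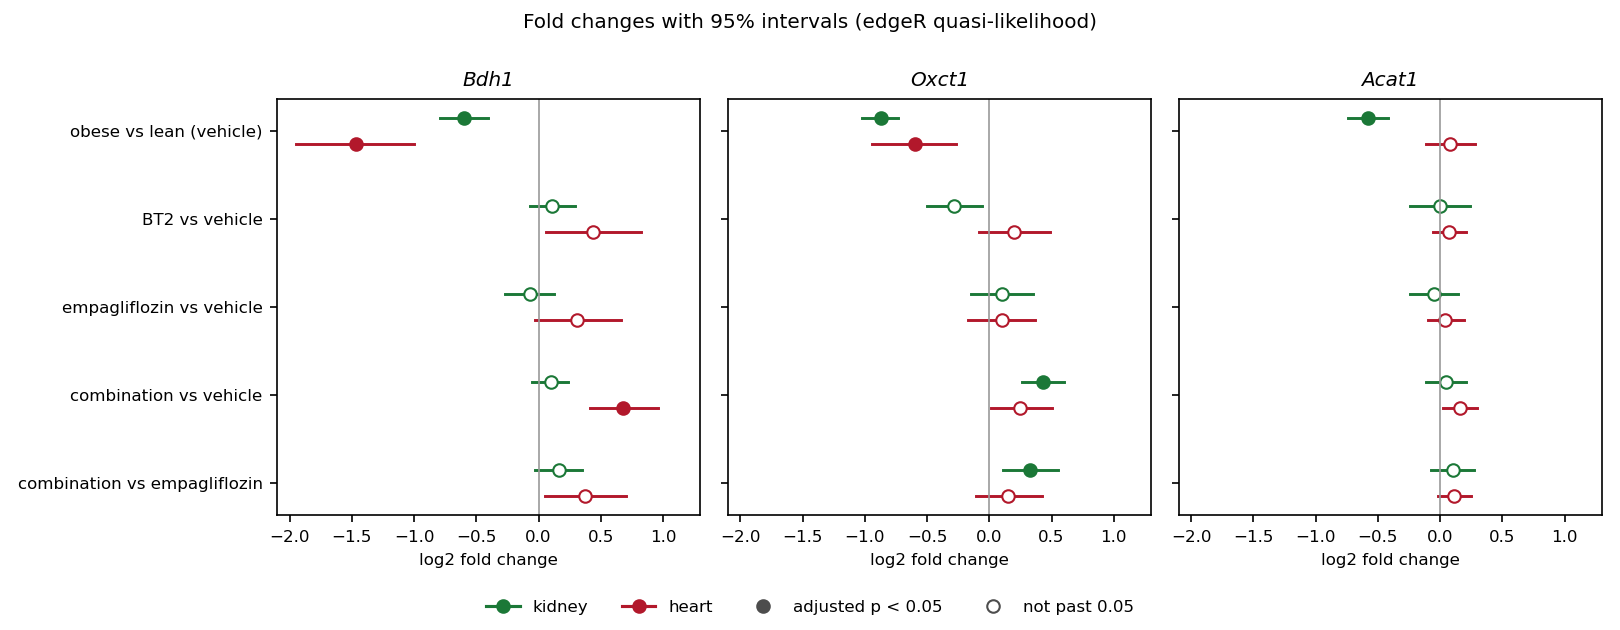
Log2 fold changes (x axis) of Bdh1, Oxct1 and Acat1 in each comparison (y axis), with 95% intervals from edgeR's quasi-likelihood fit, kidney in green above heart in red; filled points passed an adjusted p of 0.05. In obese against lean rats, Acat1 lies at -0.58 in kidney and 0.08 in heart, and Bdh1 at -0.60 in kidney and -1.47 in heart; with the combination, Oxct1 passed in kidney and Bdh1 in heart.

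BT2 alone left the 3 transcripts without a called change in either organ. In kidney, Oxct1 ran from 403 to 627 CPM with BT2 (median 481, n = 9) and from 475 to 702 CPM with vehicle (median 584, n = 10), and 8 of 9 BT2 libraries lay under the vehicle median. Its log2 fold change was -0.28 ± 0.11 (adjusted p = 0.12). The DESeq2 Wald test gave -0.263 and did pass (adjusted p = 0.0196), and the authors' deposited table lists -0.204 with an adjusted p of 0.0353. That table leaves out BT2 replicate 2, which both fits here kept. Without libraries under 1000000 counts or with transcripts of another tissue, edgeR gave -0.237 (adjusted p = 0.071). Bdh1 spanned 29.9 to 39.8 CPM with BT2 and 22.5 to 40.7 CPM with vehicle, and Acat1 322 to 435 CPM with BT2 and 284 to 465 CPM with vehicle, so both overlapped. Bdh1 was at 0.11 ± 0.09 (95% interval -0.07 to 0.29) and Acat1 at 0.00 ± 0.11 (95% interval -0.24 to 0.24). None of the 3 was called, in a comparison where 5.67% of genes were.

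Some of the neighbouring genes were called with BT2 in kidney, where 5.67% of all genes were. There were 3 of 5 transport genes, 1 of 6 regulators, 1 of 5 leucine and 1 of 14 citric acid cycle genes, and none of 3 other ketone-using, 3 isoleucine or 7 mitochondrial content genes. Slc16a1 ran from 18.9 to 56.7 CPM with BT2 (median 35.0) and from 14.4 to 157 CPM with vehicle (median 67.4), a log2 fold change of -0.98 ± 0.28 (adjusted p = 0.0403). The call was lost on plate 1 alone (log2 -1.36, adjusted p = 0.0532) and plate 2 alone (log2 -0.617, adjusted p = 0.638), without the plate term (log2 -1.13), with the replicate block (log2 -0.821) and with original runs only (log2 -0.917). Slc16a6 fell as well (log2 -1.06 ± 0.24, adjusted p = 0.00997), and Slc16a7 rose (log2 0.34 ± 0.09, adjusted p = 0.0281). Creb3l3 rose by 2.44 ± 0.20 on the log2 scale (adjusted p = 5.15e-08), and Bcat2 rose by 0.53 ± 0.10 (adjusted p = 0.00389). Suclg2, a subunit of the enzyme that makes or uses the succinyl-CoA on which Oxct1 draws, fell by 0.42 ± 0.11 on the log2 scale (adjusted p = 0.0278) and was the single gene called of 14 in the citric acid cycle. Ppara was at -0.21 ± 0.23 and was not called.

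In heart, Bdh1 ran from 12.6 to 31.6 CPM with BT2 (median 23.4) and from 6.38 to 26.5 CPM with vehicle (median 16.2), and 9 of 10 BT2 libraries exceeded the vehicle median. Its log2 fold change was 0.44 ± 0.18, with a 95% interval of 0.06 to 0.82, and it failed the adjustment (adjusted p = 0.51), where 0.0558% of genes, 7 in all, were called. Oxct1 spanned 572 to 1366 CPM with BT2 and 442 to 1186 CPM with vehicle, and Acat1 475 to 674 CPM with BT2 and 519 to 632 CPM with vehicle. Oxct1 was at 0.20 ± 0.14 (95% interval -0.08 to 0.49) and Acat1 at 0.07 ± 0.07 (95% interval -0.06 to 0.21). No gene of any of the pathway lists was called in heart with BT2. Slc16a1 was at -0.09 ± 0.11 and Ppara at 0.19 ± 0.17. Heart minus kidney, the effects of BT2 differed by 0.34 ± 0.20 for Bdh1 (adjusted p = 0.496), 0.49 ± 0.17 for Oxct1 (adjusted p = 0.226) and 0.08 ± 0.14 for Acat1 (adjusted p = 0.842), where 0.528% of genes were called.

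Empagliflozin alone also gave no called change of a member. In kidney, Oxct1 ran from 275 to 509.7 CPM with empagliflozin (median 360.2, n = 10) and from 257 to 459 CPM with vehicle (median 351, n = 9). Bdh1 spanned 27.1 to 48.0 CPM with empagliflozin and 34.7 to 47.2 CPM with vehicle, and Acat1 186 to 312 CPM with empagliflozin and 218 to 338 CPM with vehicle. All 3 overlapped widely. The log2 fold change of Oxct1 was 0.10 ± 0.12 (95% interval -0.15 to 0.35), beside -0.07 ± 0.09 for Bdh1 (95% interval -0.27 to 0.12) and -0.05 ± 0.09 for Acat1 (95% interval -0.24 to 0.14), where 1.06% of genes were called. No gene of the ketone, branched-chain, citric acid cycle or mitochondrial content lists was called in kidney. Slc16a1 was at -0.05 ± 0.16 and Ppara at 0.36 ± 0.21. Of 10 proximal tubule markers 3 fell.

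In heart, Bdh1 ran from 17.2 to 41.1 CPM with empagliflozin (median 24.4) and from 11.7 to 30.7 CPM with vehicle (median 22.7), a log2 fold change of 0.31 ± 0.17 (95% interval -0.03 to 0.66). Oxct1 spanned 873 to 1573 CPM with empagliflozin and 499.9 to 1500.4 CPM with vehicle, and Acat1 554 to 706 CPM with empagliflozin and 445 to 674 CPM with vehicle. Oxct1 was at 0.10 ± 0.13 (95% interval -0.17 to 0.37) and Acat1 at 0.04 ± 0.07 (95% interval -0.10 to 0.19). Bcat2 rose (log2 0.49 ± 0.08, adjusted p = 0.00855), among the 0.107% of genes called. Slc16a1 was at -0.06 ± 0.11 and Ppara at 0.15 ± 0.19. The differences between organs, heart minus kidney, were 0.40 ± 0.21 for Bdh1, 0.01 ± 0.19 for Oxct1 and 0.11 ± 0.12 for Acat1, and none was called, where 1.39% of genes were.

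With the combination, Oxct1 was called higher in kidney and Bdh1 in heart. In kidney, Oxct1 ran from 421 to 623 CPM with the combination (median 466, n = 10), from 275 to 509.7 CPM with empagliflozin (median 360.2, n = 10) and from 257 to 459 CPM with vehicle (median 351, n = 9). All 10 combination libraries exceeded the medians of both other groups, and the groups overlapped. Against vehicle the log2 fold change was 0.43 ± 0.08 (adjusted p = 0.000292), with 0.346 on plate 1 alone (adjusted p = 0.0495) and 0.513 on plate 2 alone (adjusted p = 0.00568). Bdh1 spanned 32.4 to 49.8 CPM with the combination and 34.7 to 47.2 CPM with vehicle, and Acat1 225 to 307 CPM with the combination and 218 to 338 CPM with vehicle. Bdh1 was at 0.10 ± 0.07 (95% interval -0.05 to 0.24) and Acat1 at 0.05 ± 0.08 (95% interval -0.11 to 0.21). So 1 of 3 members was called, a share near the background of 32.1% of genes.

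Against empagliflozin, Oxct1 rose by 0.33 ± 0.10 on the log2 scale in kidney (adjusted p = 0.0189), at a background of 31.7%. This call was lost without the 4 combination libraries that held transcripts of liver or muscle (log2 0.290, adjusted p = 0.131) and on plate 2 alone (log2 0.153, adjusted p = 0.441). Summed liver markers ran from 7.82 to 954 CPM with the combination (median 22.1), from 19.7 to 56 CPM with empagliflozin and from 22.4 to 45.2 CPM with vehicle. Bdh1 stood at 0.16 ± 0.09 (95% interval -0.03 to 0.35) and Acat1 at 0.10 ± 0.08 (95% interval -0.07 to 0.27) against empagliflozin. More of the surrounding genes were called in this comparison than members. Bdh2 (log2 0.33 ± 0.07, adjusted p = 0.000909) and the cytosolic thiolase Acat2 (log2 0.25 ± 0.07) rose. Slc16a1 fell by 1.00 ± 0.21 on the log2 scale (adjusted p = 0.0011), though on plate 2 alone it was at -0.248 (adjusted p = 0.494), and Slc16a6 fell by 1.33 ± 0.25. Ppara rose (log2 0.51 ± 0.19, adjusted p = 0.0383) and lost its call on each plate alone and in 4 other alternatives, while Esrra rose by 0.33 ± 0.08. Of the branched-chain genes, 3 of 5 in the leucine and 3 of 3 in the isoleucine route rose, with Mccc2 (log2 0.47 ± 0.07) and Hsd17b10 (log2 0.46 ± 0.07) first by adjusted p. Of the citric acid cycle genes 4 rose and 1 fell, Suclg2 (log2 -0.46 ± 0.06), and of the mitochondrial content genes 5 of 7 rose, Vdac1 first (log2 0.31 ± 0.06).

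Around Oxct1, transport, regulator and branched-chain genes were among those called with the combination in kidney, where 32.1% of all genes were called. Slc16a1 ran from 5.44 to 10.0 CPM with the combination (median 6.77) and from 12.9 to 22.1 CPM with vehicle (median 14.9), without overlap, and fell by 1.09 ± 0.13 on the log2 scale (adjusted p = 1.11e-06). Ppara rose (log2 0.86 ± 0.20, adjusted p = 0.00224), at 3.90 to 8.37 CPM with the combination and 1.83 to 4.45 CPM with vehicle, but did not pass on plate 2 alone (log2 0.911, adjusted p = 0.09). Ppargc1a, the coactivator of mitochondrial biogenesis, rose (log2 0.51 ± 0.16, adjusted p = 0.0168) and Slc16a6 fell (log2 -1.21 ± 0.24, adjusted p = 0.000523). Of the leucine genes 4 of 5 rose and of the isoleucine genes 3 of 3 rose, with medians of 0.39 and 0.43. Bcat2 led them (log2 0.79 ± 0.09, adjusted p = 5.34e-07), followed by Acadsb (log2 0.46 ± 0.09, adjusted p = 0.000443). In the citric acid cycle 2 of 14 rose, with Dlst (log2 0.31 ± 0.06) first by adjusted p, and 1 fell, Suclg2 (log2 -0.37 ± 0.06, adjusted p = 2.44e-05). Of 10 proximal tubule markers 6 fell and 2 rose, and their summed level ran from 5644 to 8461 CPM with the combination (median 6944) and from 5582 to 8230 CPM with vehicle (median 6815). All 4 collecting duct markers rose, with sums of 978 to 1781 CPM with the combination (median 1399) and 735 to 1009 CPM with vehicle (median 878). Of 4 fibroblast markers 3 fell, with sums of 211 to 312 CPM with the combination (median 259) and 251 to 555 CPM with vehicle (median 403). Of 3 macrophage markers tested 2 fell, with sums over the 4 listed of 46.4 to 89.1 CPM with the combination (median 57.5) and 63.5 to 135 CPM with vehicle (median 93.0). Against empagliflozin, 2 collecting duct markers rose, and 3 fibroblast and 2 macrophage markers fell. The part of these markers in the rise of Oxct1 was not tested.

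In heart the member that rose with the combination was Bdh1. It ran from 24.9 to 50.7 CPM with the combination (median 33.0), from 17.2 to 41.1 CPM with empagliflozin (median 24.4) and from 11.7 to 30.7 CPM with vehicle (median 22.7). All 10 combination libraries exceeded the medians of both other groups. Against vehicle the log2 fold change was 0.68 ± 0.13 (adjusted p = 0.00366), at a background of 5.13% of genes. On plate 1 alone it was 0.492 (adjusted p = 0.0634) and on plate 2 alone 0.860 (adjusted p = 0.268), and without the 7 libraries of both groups that held transcripts of atrium or skeletal muscle it was 0.708 (adjusted p = 0.0429). Summed atrial markers ran from 572 to 3495 CPM with the combination (median 1099) and from 318 to 13074 CPM with vehicle (median 1400.5). Of 6 cardiomyocyte markers 3 rose, and of 3 skeletal muscle markers 2 rose; their part in the rise of Bdh1 was not tested.

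Oxct1 in heart spanned 774 to 2061 CPM with the combination and 499.9 to 1500.4 CPM with vehicle, and Acat1 556 to 765 CPM with the combination and 445 to 674 CPM with vehicle. Both pairs of groups overlapped. Oxct1 was at 0.25 ± 0.12 (95% interval 0.01 to 0.50, adjusted p = 0.233) and Acat1 at 0.16 ± 0.07 (95% interval 0.02 to 0.30, adjusted p = 0.189) against vehicle. Against empagliflozin, Bdh1 was at 0.37 ± 0.16 (95% interval 0.05 to 0.70, adjusted p = 0.524), Oxct1 at 0.15 ± 0.13 and Acat1 at 0.11 ± 0.06. None of these passed, where 0.0249% of genes were called. Against vehicle Slc16a1 was at -0.15 ± 0.10 and Ppara at 0.45 ± 0.18 (adjusted p = 0.148), and Bdh2 rose (log2 0.37 ± 0.09, adjusted p = 0.0194). Against empagliflozin Slc16a1 was at -0.09 ± 0.10 and Ppara at 0.30 ± 0.17. All 3 isoleucine genes rose against vehicle, Acadsb by 0.46 ± 0.09, Echs1 by 0.36 ± 0.08 and Hsd17b10 by 0.23 ± 0.06 on the log2 scale. Bcat2 was the 1 leucine gene of 5 called (log2 0.62 ± 0.08, adjusted p = 0.000121). Cox4i1, a subunit of cytochrome oxidase, was the 1 of 7 mitochondrial content genes that rose, and none of 14 citric acid cycle genes was called.

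Heart minus kidney, the effect of the combination differed for Bdh1 by 0.59 ± 0.16 (adjusted p = 0.00729), where 16.2% of genes were called. The difference was -0.17 ± 0.15 for Oxct1 (adjusted p = 0.494) and 0.12 ± 0.11 for Acat1 (adjusted p = 0.522), so a rise of Oxct1 particular to kidney was not shown. The effect of BT2 on top of empagliflozin, less its effect without empagliflozin, was 0.61 ± 0.15 for Oxct1 in kidney (adjusted p = 0.0101), where 7.94% of genes were called. It was 0.05 ± 0.13 for Bdh1 and 0.10 ± 0.14 for Acat1 in kidney. In heart the same difference was -0.08 ± 0.25 for Bdh1, -0.06 ± 0.20 for Oxct1 and 0.04 ± 0.09 for Acat1, in a test where edgeR called 0% of 12864 genes and 453 had an unadjusted p under 0.05. Both of these differences set study B against study A, so drug background and study cannot be told apart in them.

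The obese vehicle groups of the 2 studies stood at different levels in kidney. Oxct1 averaged 588 ± 76.3 CPM in study A (n = 10) and 359 ± 69.5 CPM in study B (n = 9), and Acat1 359.8 ± 56.2 CPM in study A and 266 ± 35.5 CPM in study B. Bdh1 averaged 32.1 ± 5.68 CPM in study A and 39.7 ± 4.05 CPM in study B. Slc16a1 averaged 82.2 ± 49.5 CPM in study A and 15.3 ± 2.93 CPM in study B. The sample labels name only kidney for both, the design text mentions cortex as well as the whole organ, and comparisons of groups were therefore kept within a study.

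Ordered by mean level within a study, all 3 members were highest in lean rats in kidney of study A. For Oxct1 the order there was lean vehicle (1095 ± 87.1 CPM), obese vehicle and obese BT2 (494 ± 65.1 CPM), and for Acat1 and Bdh1 the obese BT2 group lay above obese vehicle by less than 1 SD. In kidney of study B, Oxct1 ran combination (481 ± 62.6 CPM), empagliflozin (380.3 ± 77.6 CPM) and vehicle, and the lower pair differed by less than 1 SD. In heart of study A, Bdh1 ran lean vehicle (47.3 ± 16.9 CPM), obese BT2 (22.8 ± 5.85 CPM) and obese vehicle (16.6 ± 5.91 CPM), and Oxct1 kept that order with each neighbouring pair closer than the larger of their SDs. In heart of study B all 3 members ran combination, empagliflozin, vehicle, with every neighbouring pair closer than the larger of their SDs.

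**Figure D3:**
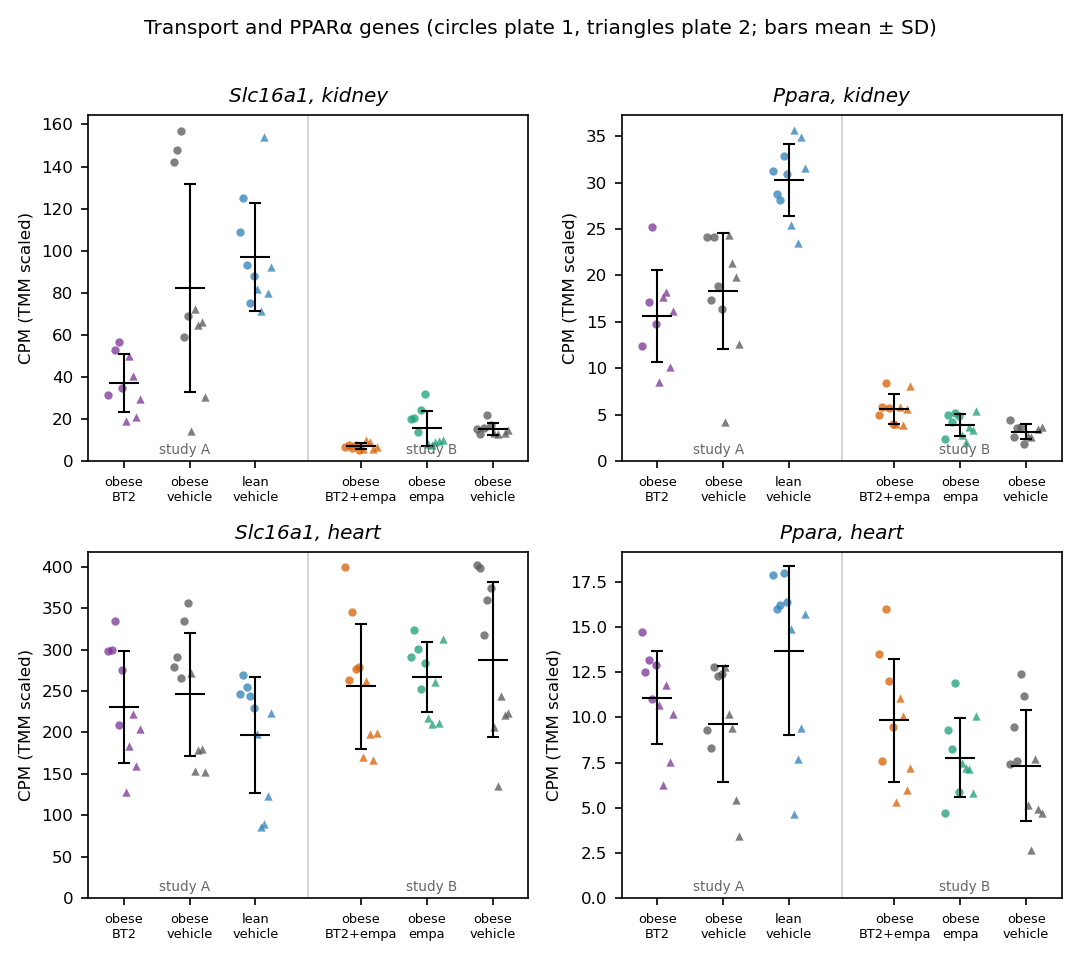
Levels of Slc16a1 and Ppara in CPM (TMM scaled, y axis) by group (x axis; empa is empagliflozin) in kidney (top) and heart (bottom), drawn as single libraries of at least 1000000 counts with mean ± SD. Kidney Slc16a1 lies at 5.44 to 10.0 CPM with the combination and at 12.9 to 22.1 CPM with vehicle of study B, and it averages 82.2 CPM in obese vehicle rats of study A and 15.3 CPM in those of study B.

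The genes whose levels followed each member most closely differed by member and organ. As a description, Spearman correlations of log2(CPM + 1) were taken among genes of at least 5 CPM. They covered the 58 kidney or 60 heart libraries of sufficient depth, with both studies pooled. The libraries share groups, plates, studies and tissue makeup. In kidney, Oxct1 followed Ghr, the growth hormone receptor, and Dbt, a subunit of branched-chain ketoacid dehydrogenase (rho 0.94 each), then Hspa9, Immt and Hykk (0.93 each). Acat1 in kidney followed Suclg1 and Ndufs1 (0.94 each), Idh3b and Sdha (0.93 each) and Serhl2 (0.92), of which the first 4 belong to the citric acid cycle or respiratory chain. Bdh1 in kidney followed Azgp1 (0.84), Gcgr, the glucagon receptor (0.83), Ldhd, the D-lactate dehydrogenase (0.80), Cyp8b1 (0.80) and Gapdh-ps1 (0.79). Between members in kidney, Oxct1 and Acat1 correlated at 0.84, Bdh1 and Oxct1 at 0.31, and Bdh1 and Acat1 at 0.18. Of 10948 genes compared there, Acat1 ranked 287 and Bdh1 4174 for Oxct1. For Acat1, Oxct1 ranked 204 and Bdh1 4773, and for Bdh1, Oxct1 ranked 1675 and Acat1 3189. In obese vehicle kidneys, Oxct1 and Acat1 averaged lower and Bdh1 higher in study B than in study A. The part of study in these correlations was not tested.

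In heart, Bdh1 followed Echs1 (0.91), Ivd (0.88), Aldh4a1 (0.87), Slc2a4, the insulin-sensitive glucose carrier (0.86), and Acss1 (0.86). Oxct1 followed Dbt (0.96), Cavin4 (0.95), Fbxo40, Mfn1 and Ccnd2 (0.94 each). Acat1 followed Mmadhc (0.85), Spryd4 and Aifm1 (0.83 each), Mdh1 (0.80) and Ndufa10l1 (0.79). Between members in heart, Bdh1 and Oxct1 correlated at 0.80, Oxct1 and Acat1 at 0.61, and Bdh1 and Acat1 at 0.53. Of 8637 genes compared there, Oxct1 ranked 20 and Acat1 659 for Bdh1. For Oxct1, Bdh1 ranked 530 and Acat1 1823, and for Acat1, Oxct1 ranked 299 and Bdh1 673. By Spearman correlation Dbt was thus among the closest 5 of Oxct1 in both organs, and no other gene was among the closest 5 of a member in both. By Pearson correlation none of the 5 kidney genes named for Oxct1, Dbt included, was among its closest 5.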

How the data were processed

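Of tools, STAR 2.7.3a, Salmon 1.5.2 and DESeq2 1.34.0 are listed in the submitters' processing notes, with mRatBN7.2 as the build. The authors deposited expected counts per gene, of which 6.85% of values were not whole; 82 columns that matched no sample were not used. For 43 libraries with a repeat run, both runs were summed, since the normalised count signal in the authors' deposited comparison tables lay closer to the sum in 56 of 56 cases. Sums were rounded and fitted with edgeR 4.0.16 in R 4.3.3 (filterByExpr, TMM factors, quasi-likelihood test, sequencing plate as a term), with 20 libraries per comparison within a study and organ and an adjusted p threshold of 0.05. Log2 fold changes and adjusted p-values listed in the authors' deposited tables are named as such where printed. Standard errors were derived from the fold change and the F statistic. Replicates 1 to 5 were on plate 1 and the others on plate 2, per the labels.

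The labels give 10 replicates per group. Total counts per library limit precision, and intervals describe the uncertainty of a fold change, not the range of single libraries. Members, gene lists and tests were chosen with earlier results of these data known. Other genes were named by rule: Slc16a1 and Ppara in the comparisons, up to 3 called genes with the smallest adjusted p per list, and the 5 most similar genes per member and organ; some genes that the rule names are not reported here. The fits were run on simulated data with known fold changes. Those data followed the model and dispersions that the fit assumes, so they checked the calculation and not how well the model suits these libraries. Alternatives were DESeq2 1.42.0 size factors and its Wald test, no filter, no plate term, a replicate block, each plate alone, 1 fit per organ, the original run alone, and leaving out doubtful libraries.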

Additional observations from a re-analysis of the deposited data

Results flagged for a closer look

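Among the 10 lean kidney libraries, replicate 8 stood apart for Acat1, with 613 CPM against 554 CPM in the next library. It was the single library set apart among 36 gene and group sets examined, where chance sets apart about 1 in 20, and it is the lean library with muscle transcripts.

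The effect of obesity on Bdh1 differed between heart and kidney by -0.86 on the log2 scale, with a deeper fall in heart, and its effect on Acat1 by 0.68, with a fall in kidney alone called. The effect of the combination on Bdh1 differed between heart and kidney by 0.59. In kidney, the effect of BT2 on Oxct1 with empagliflozin was 0.61 higher than without it, a difference in which study B and study A cannot be told apart from the drug background. Each of these differences passed edgeR's quasi-likelihood test of the difference itself.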

How the results depend on the processing

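Over 10 alternatives for each of 30 fold changes of the members, 275 of 300 kept direction and side of the threshold, 8 lost the call, 1 gained it and 16 changed sign, all 16 among fold changes that were not called. In kidney, calls were lost for Bdh1 in obese rats on plate 2 alone (-0.377) and for Oxct1 of combination against empagliflozin on plate 2 alone (0.153) and without libraries holding another tissue (0.290). In heart, calls were lost for Bdh1 in obese rats on plate 2 alone (-1.33), for Oxct1 in obese rats without a plate term (-0.637) and on plate 2 alone (-0.479), and for Bdh1 with the combination on plate 1 alone (0.492) and plate 2 alone (0.860). The plate alternatives use fewer samples; the cause of the other losses was not tested. Oxct1 with BT2 in kidney passed by DESeq2 (-0.263). Signs changed in kidney for Acat1 with BT2 without a plate term (-0.0101), under the replicate block (-0.0221), on plate 2 (-0.0344) and in 1 fit per organ (-0.00478). They changed with empagliflozin for Bdh1 on plate 2 (0.183), Oxct1 on plate 1 (-0.155) and Acat1 on plate 2 (0.0249), with the combination for Acat1 on plate 1 (-0.0159), and against empagliflozin for Bdh1 on plate 2 (-0.0684). In heart they changed for Acat1 in obese rats on plate 1 (-0.0242), and with empagliflozin on plate 1 for Bdh1 (-0.0152), Oxct1 (-0.229) and Acat1 (-0.0559), and without doubtful libraries for Acat1 (-0.0383). Against empagliflozin they changed on plate 2 for Oxct1 (-0.160) and Acat1 (-0.0473). Of 36 alternatives for differences of fold changes 4 changed sign, namely Oxct1 heart minus kidney with empagliflozin without a plate term (-0.0381) and without doubtful libraries (-0.00726), and the BT2 difference with and without empagliflozin in heart without doubtful libraries for Bdh1 (0.05) and Oxct1 (0.054). Of the other genes, signs changed for Slc16a1 in obese kidney on plate 1 (0.269), and in kidney with empagliflozin without a plate term (0.0278) and on plate 1 (0.415). They also changed with empagliflozin in heart for Slc16a1 on plate 2 (0.221) and Ppara on plate 1 (-0.275), and of combination against empagliflozin in heart on plate 1 for Slc16a1 (0.0863). On plate 1 alone in heart, calls were gained for Slc16a1 (0.31) and Ppara (-0.591) in obese rats and for Slc16a1 with empagliflozin (-0.339).

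Within an organ, same-numbered replicates did not deviate together throughout (correlations from -0.57 to 0.42). Per comparison, 0 to 3 of 10 replicates correlated best with their own number. The check cannot show whether the numbers pair samples, and it did not set kidney beside heart. With the replicate block Oxct1 in obese kidney stood at -0.876, and no member's call changed. Counts of called genes ranged in kidney from 976 to 5423 for obese against lean (4560), 70 to 1602 for BT2 (812), 2 to 631 for empagliflozin (149), 1754 to 4955 for the combination (4510) and 1133 to 4833 against empagliflozin (4442). In heart they ranged from 49 to 1068 (680), 0 to 96 (7), 0 to 1236 (13), 6 to 896 (622) and 0 to 67 (3) in the same order. Over counts outside mitochondrial genes 34 of 36 member levels moved by more than their SD, and 2 of 36 in plain CPM. With Pearson correlations, 4, 0 and 3 of the 5 closest genes of Bdh1, Oxct1 and Acat1 were shared in kidney and 4, 1 and 2 in heart. Depth limits Bdh1 most: it had 0 counts in kidney BT2 replicate 2, the shallowest library, and its next lowest counts among the deeper libraries were in heart.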
